A study of Mus musculus with 4 samples.

Results

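The mouse genes examined here belong to the brief burst of transcription that marks the two-cell embryo. They were the 10 listed symbols Zscan4c, Zscan4d, Zscan4f, Tcstv1, Tcstv3, Tdpoz1, Tdpoz3, Tdpoz4, Zfp352 and Sp110, matched exactly to the gene identifier, and all 10 had a row among the 23235 gene symbols of each library. RNA was sequenced from early blastocysts, lysed 96 hours after activation or fertilization as pools of 6 embryos, with 2 libraries per group. The SCNT group came from somatic cell nuclear transfer, which replaces the nucleus of an egg with a somatic one. The donors were embryonic fibroblasts heterozygous for an Xist knockout, bred from 129S1/SvImj females and CAST/EiJ males. Recipient oocytes were taken from B6D2F1/J females. Embryos of the second group were made by in vitro fertilization (IVF) of Xist knockout oocytes on a 129S1/Svj background with wild-type CAST/EiJ sperm. Both groups thus carried a nuclear genome of the same 129 and CAST cross and a maternal Xist knockout, while the strain of the oocyte differed with the group and cannot be told apart from it. The header of the SCNT columns also holds the word Kdm4d, the symbol of an H3K9 demethylase gene, and no source used here says whether Kdm4d was supplied to these embryos.

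As background, the two-cell stage is when the mouse embryo first transcribes its own genome on a large scale. The homeodomain factor Dux turns on many of the genes then expressed, and Zscan4 genes, which encode SCAN-domain zinc finger proteins, are known for protecting telomeres and for flickering on in rare embryonic stem cells. Tcstv genes take their name from the two-cell stage. Tdpoz genes encode TRAF- and POZ-domain proteins related to the ubiquitin ligase adaptor SPOP, Zfp352 encodes a zinc finger protein first cloned from two-cell embryos, and Sp110 (also named Ifi75 and Ipr1) encodes an interferon-inducible nuclear body protein of the SP100 family. By the blastocyst, the two-cell genes are known to be largely silent. In SCNT embryos this burst is known to be incomplete.

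Several members have near-identical copies, so the value of a single copy can depend on how the authors' software divided shared reads. The start regions of the 3 Zscan4 members, all on chromosome 7, show how alike copies are. The longest stretch that could be set side by side without gaps was 266 bases, in which 8 positions differed. It is shown 5′ to 3′ from RefSeq (GRCm38.p6), with capitals for bases that only that copy has:
Zscan4c (chr7:11005506-11005771, plus strand): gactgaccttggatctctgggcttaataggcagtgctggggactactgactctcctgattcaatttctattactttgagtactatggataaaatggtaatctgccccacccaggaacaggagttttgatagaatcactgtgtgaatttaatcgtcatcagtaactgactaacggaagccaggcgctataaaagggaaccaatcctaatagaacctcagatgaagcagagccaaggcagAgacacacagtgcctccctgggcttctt
Zscan4d (chr7:11166133-11166398, minus strand): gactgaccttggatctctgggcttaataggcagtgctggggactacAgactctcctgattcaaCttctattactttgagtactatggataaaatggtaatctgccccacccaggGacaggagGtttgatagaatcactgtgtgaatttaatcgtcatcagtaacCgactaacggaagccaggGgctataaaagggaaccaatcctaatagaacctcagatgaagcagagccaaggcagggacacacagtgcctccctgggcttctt
Zscan4f (chr7:11397699-11397964, plus strand): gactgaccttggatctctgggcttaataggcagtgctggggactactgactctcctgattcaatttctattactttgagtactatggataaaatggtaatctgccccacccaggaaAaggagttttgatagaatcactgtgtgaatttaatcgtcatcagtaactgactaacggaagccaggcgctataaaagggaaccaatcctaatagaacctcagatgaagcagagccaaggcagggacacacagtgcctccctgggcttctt
Zscan4d held 6 of these differences, and Zscan4c and Zscan4f 1 each. Over whole coding transcripts of GENCODE M21, 85.5% of the 50-base words of Zscan4c also occurred in transcripts of another gene, as did 49.6% for Zscan4d and 86.8% for Zscan4f. The share was 15.0% for Tcstv1 and 31.4% for Tcstv3 on chromosome 13. It was 44.4% for Tdpoz1, 66.2% for Tdpoz3 and 41.2% for Tdpoz4 on chromosome 3, 43.9% for Sp110 on chromosome 1 and 7.09% for Zfp352 on chromosome 4. The largest Tdpoz shares lay with predicted genes without a row: Gm9117 held 43.9% of the words of Tdpoz1, Gm4982 66.2% for Tdpoz3 and Gm5541 31.0% for Tdpoz4. Only 1.39% of the words of Tdpoz1 occurred in Tdpoz3. No source used here gives the read length, and the authors' genome build, mm9, is older than the one of these sequences.

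Members of different families also shared a sequence near their starts. The longest word that occurred in the RefSeq start windows (250 bases before to 50 after a start) of the most member families, on either strand, was ACACACCTTTAATC. Another run of letters, equally long and in as many families, overlapped it at Tdpoz1 and Zfp352. At Sp110 that run stood elsewhere, on the opposite strand. The word was picked from these windows and stood in those of 3 families, Sp110, Tdpoz1 and Zfp352. These are also the members lower in both SCNT libraries than in either IVF library. However, the Tdpoz1 values lie too near the lowest detections for its order to be resolved. At Sp110 the word stood only at the upstream start, which lies within the neighbouring gene Sp140. The windows are shown 5′ to 3′ on the gene's strand in GRCm38.p6, with the word in capitals:
Sp110 (chr1:85603842-85604141, minus strand): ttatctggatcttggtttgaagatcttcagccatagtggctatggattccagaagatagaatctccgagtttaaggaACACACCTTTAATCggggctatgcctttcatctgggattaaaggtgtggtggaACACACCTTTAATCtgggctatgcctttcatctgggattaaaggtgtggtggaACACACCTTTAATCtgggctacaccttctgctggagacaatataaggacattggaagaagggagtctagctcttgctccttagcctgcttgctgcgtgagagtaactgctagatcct
Tdpoz1 (chr3:93676234-93676533, minus strand): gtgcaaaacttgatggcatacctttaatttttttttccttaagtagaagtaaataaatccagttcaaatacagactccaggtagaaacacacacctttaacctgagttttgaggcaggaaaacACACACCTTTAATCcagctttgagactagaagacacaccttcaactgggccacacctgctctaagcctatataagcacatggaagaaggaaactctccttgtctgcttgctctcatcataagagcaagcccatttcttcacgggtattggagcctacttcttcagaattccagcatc
Zfp352 (chr4:90218570-90218869, plus strand): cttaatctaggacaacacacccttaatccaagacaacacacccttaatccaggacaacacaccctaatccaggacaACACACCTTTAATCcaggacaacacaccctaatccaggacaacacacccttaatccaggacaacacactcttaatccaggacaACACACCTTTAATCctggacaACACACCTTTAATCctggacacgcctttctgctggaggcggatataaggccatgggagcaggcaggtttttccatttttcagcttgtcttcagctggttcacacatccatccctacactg
The word occurred 3 times at the Sp110 start shown, 3 times at Zfp352 and 1 time at Tdpoz1, each time on the gene's strand. The second Sp110 start, at chr1:85598761-85599060, held none, nor did the windows of Tdpoz4 and the 3 Zscan4 members, and RefSeq windows were found for 7 of the 10 members. Of all 32851 windows, 41 (0.125%) held the word on either strand. Outside the members, 11 genes with the word had a row. Of these 1 was lower and 2 were higher in both SCNT libraries than in either IVF library. Several of the 11 were at 0 in every library and could be neither. Among all genes tested for a group difference 15.1% were lower and 18.3% higher in this sense. Among fainter symbols above 0 somewhere the shares were 14% and 14.7%. A match describes the letters and is not a binding site, and a link between the word and the level of a gene was not tested.

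The deposited values were taken to be FPKM, fragments per kilobase of transcript scaled to the mapped total, and the absolute depth is unknown. FPKM summed to between 933167 and 985197 per library, and 10802 to 10923 genes reached 1 FPKM. Genes listed at exactly 0 numbered 6505 in SCNT library 1 and 5212 in SCNT library 2, against 6527 in IVF library 1 and 5716 in IVF library 2. The libraries thus differed by number as well as by group, and the difference between libraries 1 is called pair 1 and that between libraries 2 pair 2, always SCNT minus IVF. MicroRNA and small nucleolar RNA genes took 9.50% and 9.73% of summed FPKM in the SCNT libraries and 12.4% and 12.2% in the IVF libraries. All 18 blastocyst lineage markers checked (9 of trophectoderm, 9 of inner cell mass and primitive endoderm) were above 1 FPKM in every library. The trophectoderm markers summed to 6438 and 4328 FPKM in SCNT and 4577 and 3824 FPKM in IVF. Of the 9, 4 were higher in both SCNT libraries than in either IVF library, against 18.3% of all tested genes. In the limma test described below, 0 of the 9 had an adjusted p under 0.05. An unadjusted p under 0.05 was reached by 4 of them, against 7.09% of tested genes. Of 10 cumulus and granulosa cell markers none reached 1 FPKM and 3 were at 0 in every library. The 13 fibroblast markers summed to 6.53 and 1.45 FPKM in SCNT and 3.58 and 1.79 FPKM in IVF, with Twist2 and Fap at 0 throughout. The 14 oocyte markers summed to 42.1 and 73.7 FPKM in SCNT and 30.7 and 36.4 FPKM in IVF, most of it from Ooep, a subunit of the maternal subcortical complex. The part of these other transcripts in the results was not tested.

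Apart from Sp110, and Tdpoz4 in IVF library 2, the member genes were under 0.5 FPKM in every SCNT and IVF library. Sp110 averaged 58.8 FPKM over the 4 libraries, above 92.0% of all symbols. Tdpoz4 followed at 2.52 FPKM, nearly all of it from a single IVF library, then Zfp352 at 0.239, Tdpoz3 at 0.149 and Tdpoz1 at 0.0210 FPKM. The Zscan4 copies averaged 0.0119 FPKM or less, and Tcstv1 and Tcstv3 were listed at 0 in all 4 libraries. The ranges of Tdpoz4, Zfp352 and Tdpoz3 over libraries overlapped, so their order is not firm, and the same holds among the Zscan4 copies. Of the 10 members, 3 were lower in both SCNT libraries than in either IVF library (Sp110, Zfp352 and Tdpoz1), 1 was higher (Zscan4f) and 6 overlapped or were at 0. Among the 11039 tested genes 15.1% were lower and 18.3% higher in this sense, and among 8679 symbols below the filter but above 0 somewhere the shares were 14% and 14.7%. The members' counts are too small to set apart from these shares.

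**Figure D1:**
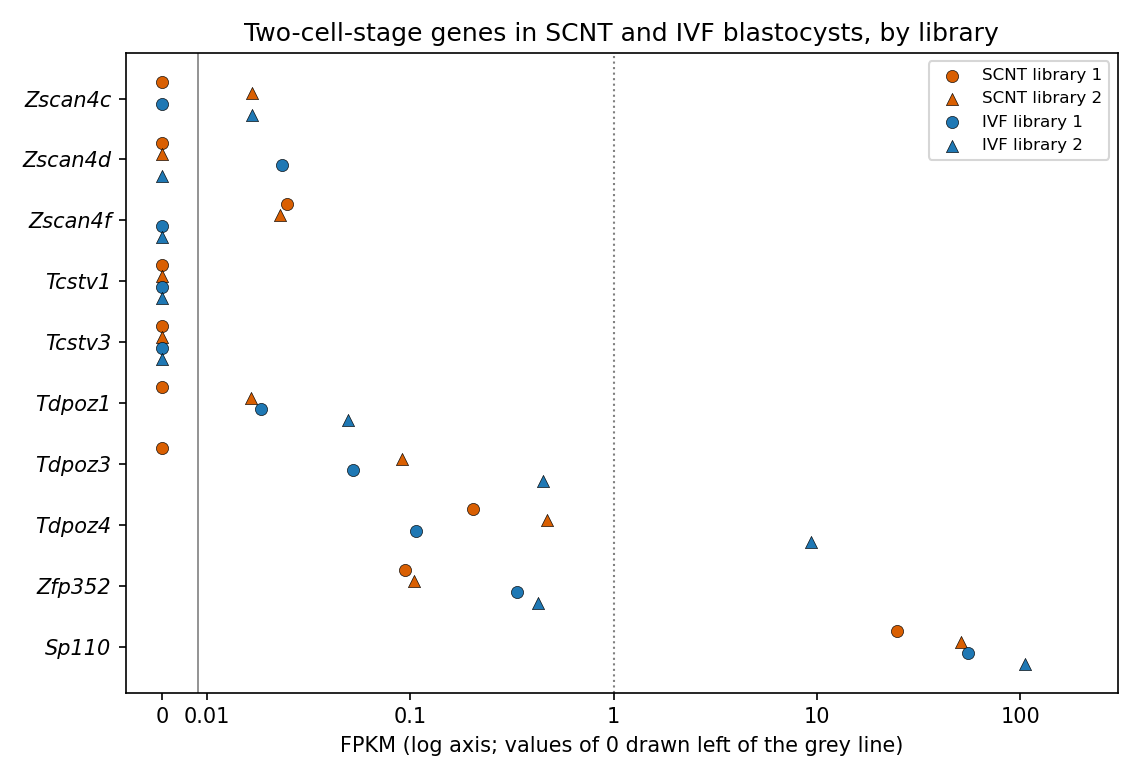
FPKM of each member (log axis) in the 2 SCNT libraries (orange) and the 2 IVF libraries (blue); circles are libraries 1, triangles libraries 2, values of 0 stand left of the solid grey line and the dotted line marks 1 FPKM. Sp110 alone lies above 1 FPKM in every library, and Tdpoz4 passes 1 FPKM in IVF library 2 only.

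Genes with a mean of at least 1 FPKM over the 4 libraries were tested with limma on log2(FPKM + 1), a scale on which the change of low genes is understated. Only Sp110 and Tdpoz4 passed that filter, Tdpoz4 through a single library. Of the tested genes 0.127% (14 of 11039) had a Benjamini-Hochberg adjusted p under 0.05, 0.0725% higher and 0.0544% lower in SCNT, and 0 of the 2 tested members did with limma, also at an unadjusted p under 0.05, which 7.09% of tested genes reached. The other 8 members were below the filter and are described by their values. Fitted with limma without any filter, the 6 of them above 0 somewhere did not pass (adjusted p between 0.448 and 0.999994). Zfp352 alone of these had an unadjusted p under 0.05, as did 1461 of all 19718 genes in that fit. Since the labels do not say whether replicate libraries stem from separate matings or sessions, the p-values reflect the spread of these libraries alone, which may be technical. In pooled embryos, fewer cells expressing a gene and less RNA per cell cannot be told apart.

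Zscan4 transcripts were at the edge of detection in both groups. Zscan4c had 0 and 0.0167 FPKM in SCNT, against 0 and 0.0167 FPKM in IVF, so each group had it in its library 2 alone. Zscan4d was at 0 in both SCNT libraries and at 0.0234 and 0 FPKM in IVF. Zscan4f reached 0.0247 and 0.0228 FPKM in SCNT, while both IVF libraries listed it at 0. Which copy was detected thus varied by library, and with 86.8% of its 50-base words shared, the Zscan4f values are uncertain. Summed over the 3 copies, which depends less on how reads were divided among them, Zscan4 had 0.0247 and 0.0394 FPKM in SCNT and 0.0234 and 0.0167 FPKM in IVF. Both SCNT sums were above both IVF sums, by 0.00189 (log2) in pair 1 and 0.03 in pair 2. The copies Zscan4a, Zscan4b and Zscan4e had rows at 0 in all libraries and add nothing to the sum.

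How little RNA such values stand for was read from the low end of each library. FPKM multiplied by transcript length in kilobases is proportional to fragments, so genes with 1 annotated transcript over a kilobase long give a scale of the faintest detections. All 5 Zscan4 detections had between 2.58% and 5.09% of the detected single-transcript genes of their library below them. They lay at or just below the 5th percentile, which was 0.0472 and 0.0421 FPKM times kilobases in SCNT and 0.0530 and 0.0429 in IVF. Tdpoz1 lay as low in SCNT library 2 and IVF library 1, with 3.41% and 2.58% below it. Differences among values this close to the lowest detections were not resolvable at this depth.

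**Figure D2:**
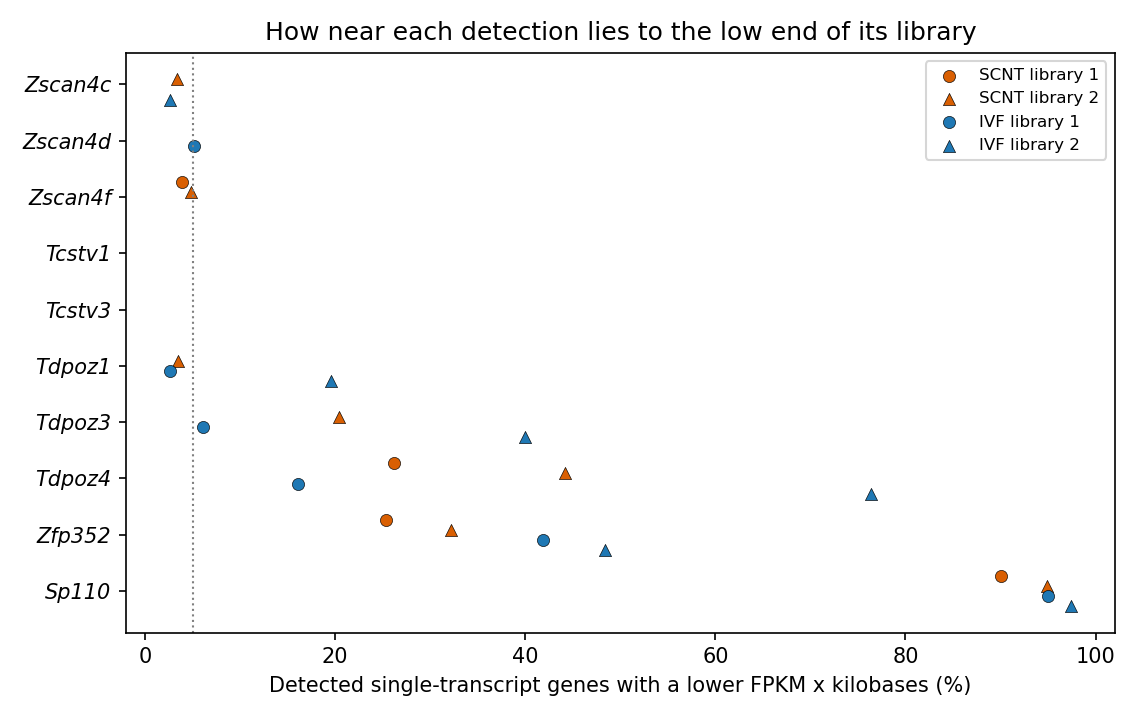
For each member and library, the share of detected single-transcript genes whose FPKM times kilobases was lower (x axis, percent), with SCNT in orange, IVF in blue, circles for libraries 1 and triangles for libraries 2; members at 0 have no point and the dotted line marks 5%. The Zscan4 detections sit at the dotted line, between 2.58% and 5.09%, while Sp110 lies at 90.0% or above.

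The Tcstv genes, whose functions are little known, gave no signal at all. Tcstv1 and Tcstv3 were listed at 0 in both SCNT libraries and both IVF libraries. They were among 3517 symbols, 15.1% of all, that were at 0 in all 4 libraries. The related rows AF067063 and BC061212 were also at 0, and AU015228 had 0.0710 and 0 FPKM in SCNT and 0.0293 and 0.122 FPKM in IVF. Because the depth is unknown, no upper limit can be set on a gene listed at 0.

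The Tdpoz genes stood apart in a single IVF library. Tdpoz4 was measured at 0.204 and 0.468 FPKM in SCNT, against 0.107 and 9.29 FPKM in IVF, so IVF library 1 was the lowest and IVF library 2 the highest of the 4. IVF libraries 2 and 1 differed 87.1-fold, against 2.29-fold between the SCNT libraries. The difference, SCNT minus IVF, was -1.34 ± 1.03 (log2, SE), which did not exceed the replicate spread (limma adjusted p = 0.963). It was 0.12 in pair 1 and -2.81 in pair 2, and it turned to 0.26 without IVF library 2, where the gene fell below the filter and was not tested. Without IVF library 1, the difference was -2.95 and passed (limma adjusted p = 0.0125), but that fit compares the SCNT libraries with IVF library 2 alone, which is assumed to vary like the SCNT pair, and so rests on the 1 high value. The other alternatives in which it was tested gave limma adjusted p between 0.441 and 0.9998.

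The other Tdpoz copies followed in part. Tdpoz3 had 0 and 0.0913 FPKM in SCNT, against 0.0521 and 0.451 FPKM in IVF, again highest in IVF library 2, and the groups overlapped. Tdpoz1 had 0 and 0.0165 FPKM in SCNT and 0.0184 and 0.0492 FPKM in IVF, where the highest value had 19.5% of detected genes below it. Tdpoz2, a copy outside the members, behaved otherwise, with 1.25 and 2.48 FPKM in SCNT and 0.987 and 2.08 FPKM in IVF (difference 0.18 ± 0.33, limma adjusted p = 0.9996), and was higher in libraries 2 of both groups. Tdpoz2 made up 85.9% and 81.2% of the summed FPKM of the 5 Tdpoz copies in SCNT, against 84.8% in IVF library 1 and 17.5% in IVF library 2, where Tdpoz4 made up 78.3%. Gm4858, which holds 23.4% of the 50-base words of Tdpoz4 and was looked up after the values were seen, had 0.1002 and 0.271 FPKM in SCNT and 0.0696 and 3.84 FPKM in IVF. It was thus also highest in IVF library 2, and reads of this pair could be shared. Tdpoz5 was at 0 throughout.

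**Figure D3:**
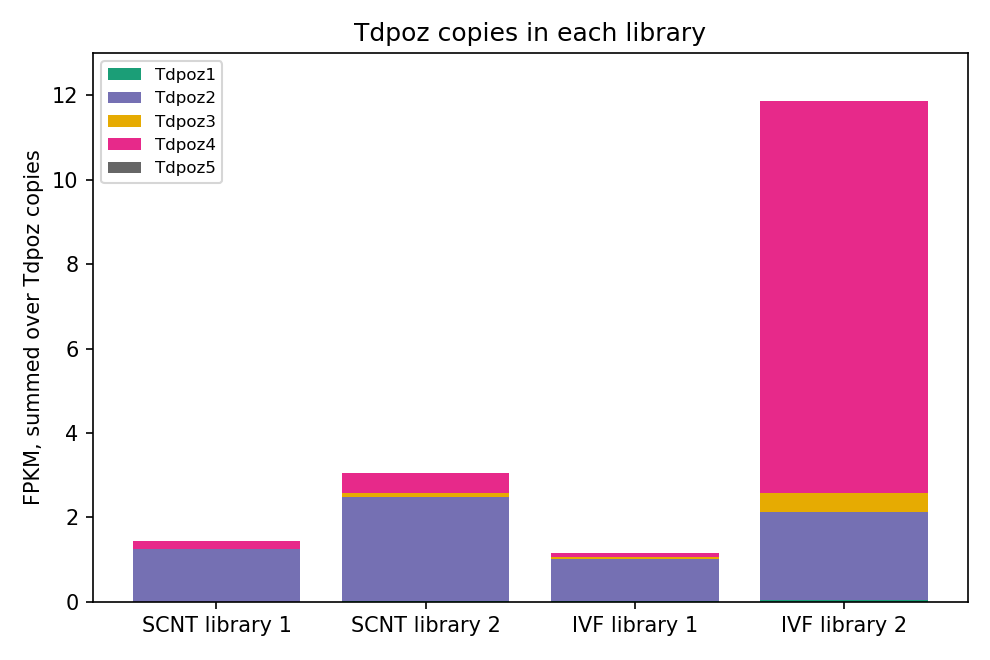
FPKM of the 5 Tdpoz copies stacked in each library (y axis, FPKM), SCNT libraries left and IVF libraries right. Tdpoz2 makes up most of the bar in every library except IVF library 2, where Tdpoz4 reaches 9.29 FPKM; Tdpoz1 and Tdpoz3 are thin and Tdpoz5 is 0.

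Summed over the 3 Tdpoz members, the level was 0.204 and 0.576 FPKM in SCNT and 0.177 and 9.79 FPKM in IVF. The summed row differed by -1.37 (log2) and did not pass (limma adjusted p = 0.956). With Tdpoz2 and Tdpoz5 added, the difference was -0.74 (limma adjusted p = 0.9996). The genes whose pattern over the 4 libraries lay nearest to the mean of Tdpoz4 and Sp110, by Euclidean distance of centred log2(FPKM + 1), were Defb7 (0.30), Fabp4 (0.48), Bex6 (0.49), Slc25a31 (0.52) and Pde6a (0.56). Both Tdpoz4 and Sp110 peak in IVF library 2, so genes picked for likeness peak there too, for example Slc25a31, a mitochondrial ADP/ATP carrier gene, at 0.657 and 0.681 FPKM in SCNT and 1.30 and 6.72 FPKM in IVF.

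Zfp352 was low, and its values were lower in both SCNT libraries. It had 0.0942 and 0.104 FPKM in SCNT, a mean of 0.0990 ± 0.00682, against 0.333 and 0.426 FPKM in IVF, a mean of 0.379 ± 0.0656 (SD, n = 2 libraries each). Both SCNT libraries were below both IVF libraries, as for 14% of symbols below the filter and above 0 somewhere. The ratio of SCNT to IVF for Zfp352 was 0.283 in pair 1, 0.244 in pair 2 and 0.261 from the group means. These values lay above the faintest detections, with 25.4% and 32.2% of detected single-transcript genes below them in SCNT and 41.9% and 48.4% in IVF. On the log2(FPKM + 1) scale the difference was -0.33, between -0.28 and -0.38 whichever library was left out. Zfp352 was below the filter. With the filter lowered to a mean of 0.1 FPKM its SE was 0.11 and it did not pass (limma adjusted p = 0.556, unadjusted p = 0.0296), nor did it with no filter (limma adjusted p = 0.448, unadjusted p = 0.00417). An unadjusted limma p under 0.05 was reached by 1125 of 14747 genes at the lower filter and 1461 of 19718 with no filter. Only 7.09% of the 50-base words of Zfp352 were shared with other genes, the lowest share among the members, so its value depended least on copies.

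Sp110 was the member with substantial expression, and its estimate was lower in SCNT. It had 24.6 and 50.7 FPKM in SCNT, a mean of 37.6 ± 18.5, against 55.1 and 105 FPKM in IVF, a mean of 80.0 ± 35.2 (SD, n = 2 libraries each). Both SCNT libraries were below both IVF libraries, as for 15.1% of tested genes, although SCNT library 2 came close to IVF library 1. Within each group library 2 was about double library 1, by 2.06 times in SCNT and 1.90 times in IVF. The ratio of SCNT to IVF was accordingly even within numbers, 0.446 in pair 1 and 0.483 in pair 2. The log2 difference of -1.08 ± 0.46 (SE) did not pass (limma adjusted p = 0.758, unadjusted p = 0.0636), with -1.13 in pair 1 and -1.03 in pair 2.

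The size of the Sp110 difference depended on the libraries used. It was -0.58 without SCNT library 1 and -0.63 without IVF library 2, against -1.59 without SCNT library 2 and -1.54 without IVF library 1, and none of these passed (limma adjusted p between 0.447 and 0.9998). Much of the Sp110 transcript also has copies on chromosome 1. Gm15753 holds 25.2% and Gm16026 20.9% of its 50-base words, and neither had a row. No source used here says how reads of such copies were assigned.

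The neighbours of Sp110 on chromosome 1, looked up after its values were seen, did not separate the groups in its direction. Of the 3 nearest genes with a row on each side in RefSeq order, none passed with limma. None was lower and 3 were higher in both SCNT libraries than in either IVF library. Over all tested genes 15.1% were lower and 18.3% higher in this sense, and the neighbours are too few to set apart from these shares. Sp140, a paralogue of the same SP100 family on the opposite strand, had 11.7 and 7.24 FPKM in SCNT and 6.37 and 6.05 FPKM in IVF, higher in both SCNT libraries (difference 0.51 ± 0.26, limma adjusted p = 0.852). In GENCODE M21 the pair lies head to head without overlap, but the upstream RefSeq start of Sp110 lies within Sp140. Without strand, which no source used here mentions, reads there could belong to either gene. A530032D15Rik had 13.5 and 14.1 FPKM in SCNT and 7.49 and 11.3 FPKM in IVF, also higher in both SCNT libraries (0.53 ± 0.23, limma adjusted p = 0.776). C130026I21Rik, which holds 3.69% of the words of Sp110, had 15.1 and 21.0 FPKM in SCNT and 16.1 and 20.3 FPKM in IVF, a difference of -0.02 ± 0.24. Gm7609 differed by 0.21 ± 0.30. A630001G21Rik had 1.17 and 0.840 FPKM in SCNT and 0.615 and 0.690 FPKM in IVF, below the filter. Sp100, the founding member of the family, was at 0.0213 and 0.235 FPKM in SCNT and 0.423 and 0.0965 FPKM in IVF, with overlapping groups and no test.

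**Figure D4:**
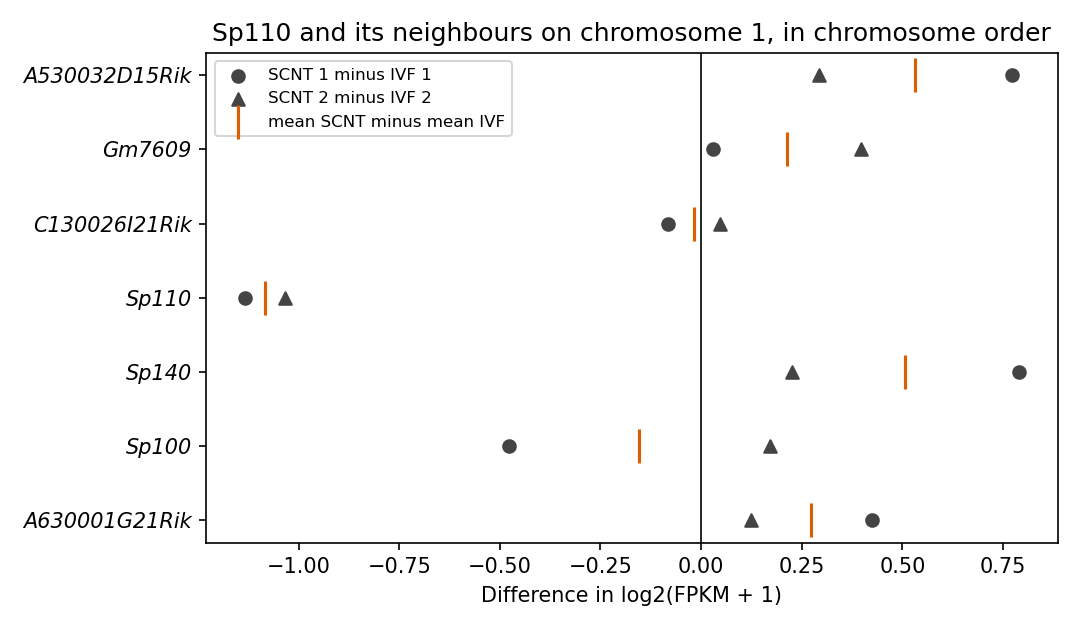
Difference in log2(FPKM + 1), SCNT minus IVF (x axis), for Sp110 and the 3 nearest genes with a row on each side, in chromosome order from top to bottom; circles are pair 1, triangles pair 2 and orange bars the difference of group means. Sp110 lies at -1.13 and -1.03 and the other genes between -0.48 and 0.79.

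Other genes of the two-cell burst were mostly low, with exceptions such as Pramel7. Of 44 listed genes 32 had a row, 7 were tested and 0 passed with limma in either direction. Of the 7, 1 had an unadjusted limma p under 0.05, against 7.09% of all tested genes. The median difference of the 7 was -0.12, against 0.01 over all tested genes. Ddit4l, an inhibitor of mTOR signalling, had 2.61 and 6.08 FPKM in SCNT and 7.52 and 10.6 FPKM in IVF (difference -0.98 ± 0.37, limma adjusted p = 0.686). It was the only tested gene of the list whose groups did not overlap. Over all tested genes 15.1% were lower and 18.3% higher in both SCNT libraries than in either IVF library. D5Ertd577e differed by 0.44, Ubtfl1 by -0.38 and Pramel7, a PRAME-family gene linked to naive pluripotency, by 0.14, at 178 and 175 FPKM in SCNT and 143 and 178 FPKM in IVF.

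Below the filter, 22 genes of the list were above 0 somewhere, of which 7 were higher and 3 lower in both SCNT libraries than in either IVF library. The higher ones included the group Gm2022, Gm5662, Gm8300 and Gm2016, predicted genes with related sequences, named after their values were seen. Gm2022 had 0.897 and 1.07 FPKM in SCNT and 0.438 and 0.278 FPKM in IVF, and Gm5662 had 0.549 and 0.627 FPKM in SCNT and 0.237 and 0.200 FPKM in IVF. Gm2016 had 0.423 and 0.725 FPKM in SCNT and 0.105 and 0.0581 FPKM in IVF. Among the lower ones was Arg2, mitochondrial arginase, with 0.434 and 0.591 FPKM in SCNT and 1.35 and 1.20 FPKM in IVF. Among all 8679 symbols below the filter and above 0 somewhere, 14.7% were higher and 14% lower in this sense.

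Several factors known to act on the programme were well expressed. Dux, the homeodomain activator, was itself low, at 0.0722 and 0.660 FPKM in SCNT, against 0.149 and 0.458 FPKM in IVF, overlapping and higher in libraries 2. Dppa2 and Dppa4, partner proteins that act upstream of Dux, were abundant. Dppa2 had 129 and 191 FPKM in SCNT and 168 and 243 FPKM in IVF (-0.37 ± 0.30, limma adjusted p = 0.970), and Dppa4 had 134 and 141 FPKM in SCNT and 124 and 131 FPKM in IVF. Of 16 listed regulators of the start of the programme 11 had a row, 8 were tested and 0 passed with limma, with a median of -0.06. An unadjusted limma p under 0.05, which 7.09% of all tested genes had, was reached by 1 of the 8. That was Kdm5b, an H3K4 demethylase, with 19.8 and 14.4 FPKM in SCNT and 38.3 and 28.5 FPKM in IVF, lower in both SCNT libraries (-0.93 ± 0.25, limma adjusted p = 0.492). Gata2 and Tbx3, transcription factor genes, differed by 0.17 and -0.17. Of the 8 tested regulators 1 was higher and 1 lower in both SCNT libraries than in either IVF library, against 18.3% and 15.1% of tested genes.

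None of the chromatin factors known to keep two-cell genes silent passed. All 27 listed genes were tested, 0 passed with limma and 0 had an unadjusted p under 0.05, and 5 were higher and 5 lower in both SCNT libraries than in either IVF library. Over all tested genes 18.3% were higher and 15.1% lower in this sense. The median difference was -0.02. Max, a partner of the repressor PRC1.6 complex, differed by 0.37 ± 0.21, Zmym2 by -0.30 ± 0.18, L3mbtl2, another PRC1.6 subunit, by -0.32 ± 0.20, and Dnmt1, the maintenance DNA methyltransferase, by 0.20 ± 0.16.

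Lists around the known functions of the members were also followed. Of 18 telomere genes 16 were tested, 0 passed with limma and 0 had an unadjusted p under 0.05, with a median of 0.03. Dkc1, the telomerase component dyskerin, differed by -0.33, Atrx, a chromatin remodeller gene, by -0.23 and Acd, which encodes the shelterin protein TPP1, by -0.16. Of 11 genes of the SP100 family and of nuclear bodies 9 were tested, with 0 passed, 0 at an unadjusted p under 0.05 with limma and a median of -0.15. The smallest p belonged to Sumo3, a SUMO gene, at -0.32, then to Sp140, to Atrx at -0.23 and to Hipk2, a nuclear body kinase gene, at -0.18. All 7 genes of SPOP, the relative of Tdpoz proteins, and of other ubiquitin ligase subunits and adaptors were tested, with 0 passed, 0 at an unadjusted p under 0.05 with limma and a median of -0.05. Spop had 19.2 and 21.2 FPKM in SCNT and 23.3 and 27.1 FPKM in IVF, a difference of -0.30 ± 0.18. Klhl12 and Keap1, substrate adaptors of cullin 3, differed by -0.26 and 0.23, and Cul3 itself by -0.23. Of the 16 tested telomere genes 4 were lower and 0 higher in both SCNT libraries than in either IVF library. The SP100 and nuclear body list had 2 lower and 1 higher of 9, and the SPOP list 2 lower and 1 higher of 7. Over all tested genes these shares were 15.1% and 18.3%.

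**Figure D5:**
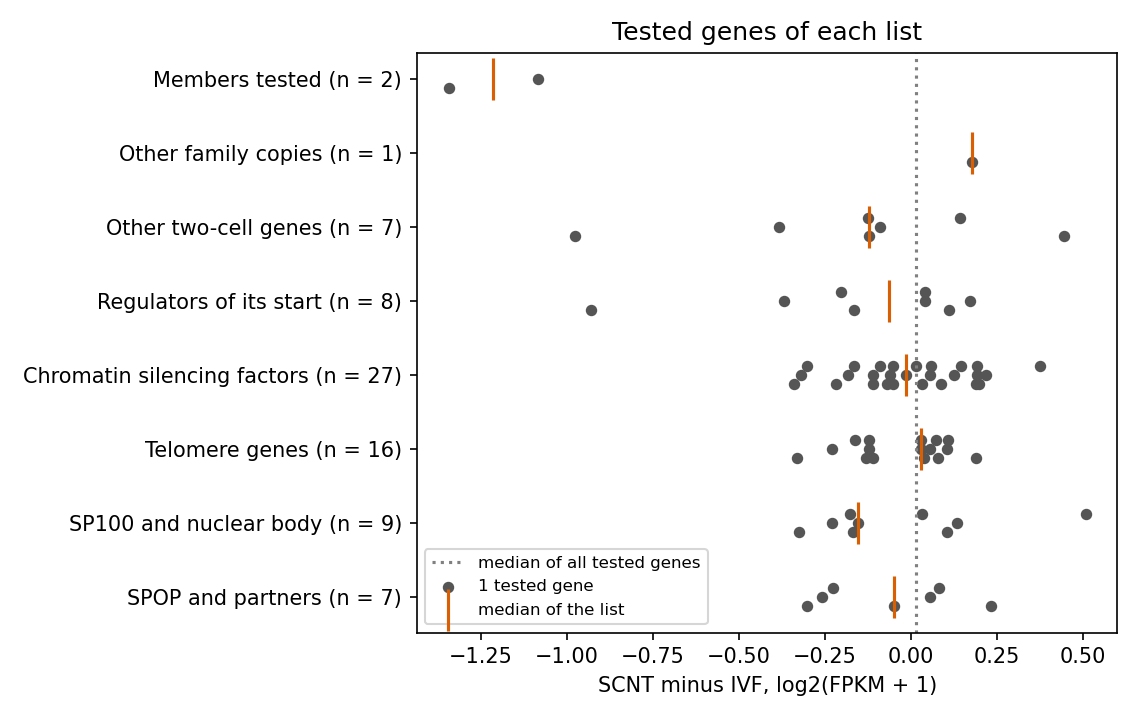
Difference SCNT minus IVF in log2(FPKM + 1) (x axis) for every tested gene of each list (grey points); orange bars are list medians and the dotted line is the median of all tested genes, 0.01. The 2 tested members are single genes, Sp110 at -1.08 and Tdpoz4 at -1.34, and Tdpoz4 passed the filter through IVF library 2 only. Single genes of the other 7 lists plotted lie between -0.98 (Ddit4l) and 0.51 (Sp140). The medians of those lists lie between -0.15 and 0.18, the latter from Tdpoz2 alone.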

How the data were processed

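RNA-seq of 4 mouse blastocyst libraries was analysed, 2 SCNT and 2 IVF, grouped by title. The submitters' processing notes name the aligners TopHat2 2.0.14 and Bowtie2 2.1.0, the quantifier Cufflinks 2.2.1 and the build mm9. Values the authors deposited are read here as FPKM, a unit inferred from Cufflinks and from the values. No source used here gives the annotation, filters, strand or handling of multiply mapped reads. Per the labels' protocols, cDNA was amplified from lysed embryos with a SMARTer Ultra Low Input kit. Genes with a mean of at least 1 FPKM were fitted with limma 3.58.1 (R 4.3.3) on log2(FPKM + 1), with group as the only term, a mean-variance trend and Benjamini-Hochberg adjustment over all tested genes at 0.05. The code was tested on simulated data. Values up to 1e-06 counted as 0. No count test was used, as the files hold no counts, and the depth is unknown. Word sharing used GENCODE M21 transcripts and start windows used RefSeq, both on GRCm38. The members and lists were chosen with earlier results of these data known. All members were named, and of each other list up to 4 tested genes with the smallest unadjusted p, the family copies, Dux, Dppa2 and Dppa4, and the 5 genes with the nearest pattern, skipping predicted genes. A gene that this rule selects is not reported here. Other names are marked as chosen after their values were seen. Alternatives were the pseudocount, filter, scaling, prior, a block on library number, summed copies and leaving out each library.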

Additional observations from a re-analysis of the deposited data

How the results depend on the processing

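None of the tested members passed under any alternative except Tdpoz4 without IVF library 1 (1 member called, against 0 as reported). The number of genes called over all tested genes was 14 as reported, 9 when rescaled without short RNA genes and 45 to 53 when 1 library was left out. Leaving out 1 library gave 0 to 1 called members. Sp110 kept a negative difference under all 13 alternatives. Leaving out a library could not turn its sign, because both SCNT libraries lay below both IVF libraries. Tdpoz4 kept a negative difference under the 11 alternatives in which it could be tested. These do not include leaving out IVF library 2, where it fell below the filter and its difference turned to 0.26. With a pseudocount of 0.1 the Zscan4 sum differed by 0.14 in place of 0.02, and leaving out 1 library gave between 0.01 and 0.03 for it. The Tdpoz sum of members ranged from -2.97 without IVF library 1 to 0.23 without IVF library 2.

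Same-numbered libraries deviated together (correlation of deviations 0.31 over 11039 genes), but with 2 pairs the numbers are not shown to pair the samples. With the replicate block 20 genes and 0 members were called. Sp110 then differed by -1.08 (limma adjusted p = 0.0829) and Tdpoz4 by -1.34 (0.441). The absolute depth is unknown, so values near the lowest detections, as for Zscan4 and Tdpoz1, limit what could be seen.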
